A study of Mus musculus with 10 samples.

Results

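Clustered Zfp genes are the mouse zinc finger genes that sit next to one another in the genome. They were taken as the protein-coding RefSeq genes of mm10 whose symbol is Zfp followed by digits alone and whose span lies within 100 kb of the span of another such gene. Of 367 protein-coding genes named in this way, 212 met the rule, out of 21887 protein-coding genes in all. The other 155 are called isolated Zfp genes below. The study profiled RNA of male mouse embryonic stem cells derived from 129 mice and kept without feeders in serum and LIF, in 10 samples. Mettl3 knockout (Mettl3-KO) and wild-type (Mettl3-WT) cells gave polyA RNA for 2 m6A precipitates and 2 inputs each. Halo-Ythdc1 knockin cells gave total RNA for 1 pull-down of the tagged YTHDC1 (RNA immunoprecipitation, RIP) and 1 input. The labels do not say whether the paired samples came from separate cultures or the knockout from 1 clone. What was analysed is 1 list of peak positions for each kind of precipitate, with 6764 knockout m6A, 12368 wild-type m6A and 30992 RIP peaks. The lists hold no height, strand, depth or value per replicate, so no difference below could be set against the spread between replicates, and no p-value is given. Intervals are exact Clopper-Pearson 95% binomial intervals and cover counting error only.

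N6-methyladenosine (m6A) is placed on nascent messenger RNA by a complex whose catalytic subunit is METTL3, and YTHDC1 is the reader protein that binds it in the nucleus. It is known mostly from long internal exons and from the region around the stop codon. Most clustered Zfp genes encode proteins with an array of C2H2 zinc fingers, many of them behind a KRAB domain, which recruits TRIM28 and the histone methyltransferase SETDB1 to DNA. In embryonic stem cells such proteins are known for silencing retrotransposons and keeping imprints. The finger array is usually encoded in a single long last exon, and the clusters grew by tandem duplication, so neighbours can be close in sequence.

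Sequences around the start of transcription are shown because 17 of the 31 knockout m6A peaks placed by strand lay there (54.8%), while few wild-type or RIP peaks did. The windows below are from the RefSeq promoter table of GRCm38.p6, the assembly behind mm10, which held 183 of the 212 members. They belong to the 11 genes named by the rule in the methods that held a knockout peak with its midpoint up to 200 bp downstream of a RefSeq start. Each runs 5′ to 3′ on the gene's strand. The 40 bases before the start are in lower case and the first 20 bases of the RNA in capitals.
Zfp53: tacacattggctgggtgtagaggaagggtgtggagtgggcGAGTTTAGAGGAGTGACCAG
Zfp110: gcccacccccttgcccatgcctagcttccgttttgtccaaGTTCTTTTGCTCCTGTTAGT
Zfp141: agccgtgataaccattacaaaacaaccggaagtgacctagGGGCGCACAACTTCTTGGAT
Zfp180: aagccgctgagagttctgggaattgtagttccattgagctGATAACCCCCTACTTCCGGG
Zfp212: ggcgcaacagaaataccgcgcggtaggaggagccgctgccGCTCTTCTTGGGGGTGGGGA
Zfp428: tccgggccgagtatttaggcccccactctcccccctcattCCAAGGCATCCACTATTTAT
Zfp445: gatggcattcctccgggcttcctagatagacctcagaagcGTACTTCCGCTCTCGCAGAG
Zfp771: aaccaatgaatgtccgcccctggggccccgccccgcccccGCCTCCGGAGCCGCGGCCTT
Zfp809: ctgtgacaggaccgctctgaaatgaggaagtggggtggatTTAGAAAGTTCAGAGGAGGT
Zfp932: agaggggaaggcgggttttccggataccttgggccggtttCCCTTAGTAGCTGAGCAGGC
Zfp982: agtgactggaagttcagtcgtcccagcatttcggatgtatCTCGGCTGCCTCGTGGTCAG
The windows lie at chr17:21488948-21489007 (Zfp53, + strand), chr7:12834721-12834780 (Zfp110, +), chr7:42505734-42505793 (Zfp141, -), chr7:24081857-24081916 (Zfp180, +) and chr6:47920528-47920587 (Zfp212, +). The others lie at chr7:24507047-24507106 (Zfp428, +), chr9:122865987-122866046 (Zfp445, -), chr7:127244486-127244545 (Zfp771, +), chr9:22225672-22225731 (Zfp809, +), chr5:109996487-109996546 (Zfp932, +) and chr4:147492377-147492436 (Zfp982, +). No sequence inside the peaks themselves was read, as no genome was used here.

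Clustered Zfp genes seldom held a knockout m6A peak and mostly held a wild-type one. A peak was counted for a gene when its midpoint lay in the gene span. In the knockout list 26 of 212 members had a peak (12.3%, 8.17 to 17.5%), against 18.2% of all protein-coding genes. In the wild-type list 138 had one (65.1%, 58.3 to 71.5%), against 30.3% of all protein-coding genes. The members therefore lay below the background in the knockout list and above it in the wild-type list, with intervals that did not reach it in either case. A YTHDC1 RIP peak was found in 118 members (55.7%, 48.7 to 62.5%), against a background of 42.2%. With only the peaks wider than their list's median this order turned, with a RIP peak in 25.9% of members and 27.4% of all protein-coding genes.

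Gene by gene, 116 members had a wild-type and no knockout m6A peak (54.7%, 47.8 to 61.5%), where the background was 18.8%. The reverse was found in 4 members (1.89%, 0.516 to 4.76%, background 6.66%), namely Zfp53, Zfp110, Zfp692 and Zfp982. Zfp692 lies outside the rule for named genes and is named because the count is small. A peak in both m6A lists was found in 22 members (10.4%, 6.62 to 15.3%, background 11.5%), and in this class the members were close to the background. In all 3 lists together, 49 members had no peak (23.1%, 17.6 to 29.4%, background 48.3%). Isolated Zfp genes were similar, with a wild-type and no knockout peak in 47.1% (39 to 55.3%) and the reverse in 2.58% (0.708 to 6.48%). Both m6A peaks stood in 17.4% of them (11.8 to 24.3%) and no peak in 19.4% (13.5 to 26.5%). Each of these intervals overlapped that of the members. Of the 2 precipitates labelled as knockout, 1 carries the name of the wild-type list in its description. Which precipitates entered which list is therefore uncertain, and every contrast of the m6A lists here rests on the lists' own names.

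**Figure D1:**
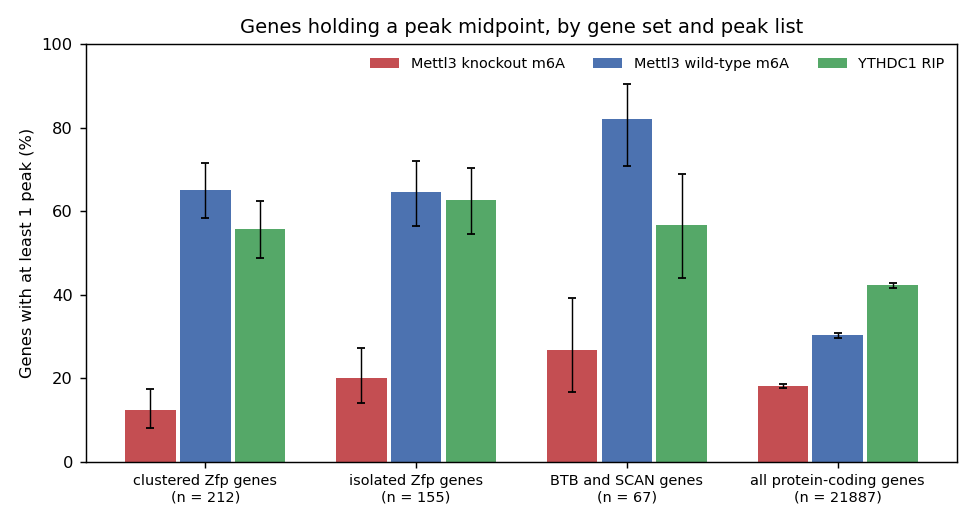
Percentage of genes (vertical axis) holding at least 1 knockout m6A, wild-type m6A or YTHDC1 RIP peak midpoint in clustered Zfp genes, isolated Zfp genes, BTB and SCAN zinc finger genes and all protein-coding genes. Error bars are exact 95% binomial intervals. Clustered Zfp genes stood at 12.3%, 65.1% and 55.7%, against 18.2%, 30.3% and 42.2% of all protein-coding genes.

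Clustered and isolated Zfp genes had close shares in the wild-type list, while the knockout and RIP shares were lower in the clustered genes. Of the 155 isolated Zfp genes 20% had a knockout m6A peak (14 to 27.2%), 64.5% a wild-type m6A peak (56.4 to 72%) and 62.6% a RIP peak (54.5 to 70.2%). In each list the interval overlapped that of the clustered genes. Such an overlap does not show that the shares are equal, and the differences were not tested. Of 67 genes of the BTB and SCAN zinc finger families, named Zbtb, Zscan or Zkscan, 26.9% had a knockout m6A peak (16.8 to 39.1%), 82.1% a wild-type one (70.8 to 90.4%) and 56.7% a RIP peak (44 to 68.8%). The members therefore lay below these families in both m6A lists, with intervals that overlapped narrowly. A wild-type and no knockout peak stood in 59.7% of the BTB and SCAN genes (47 to 71.5%) and the reverse in 4.48% (0.933 to 12.5%). No peak in any list was found for 8.96% of them (3.36 to 18.5%). The rule used no readout, but the clustered genes were singled out in a table already known to hold many Zfp genes with wild-type peaks, so these shares are descriptions.

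The members were of about the same length as other genes, with a median span of 15819 bp, against 17169 bp for all protein-coding genes. Between the lower and upper quartile of the members' spans (12136.5 to 25882.5 bp), 7.55% of 106 members had a knockout m6A peak and 67% a wild-type one. Among all 4513 protein-coding genes with spans in that range the shares were 22.2% and 35.1%. The RIP shares were 50% of these members and 46.4% of these protein-coding genes, a smaller gap than over all spans. RNA level is not recorded in the lists, and its part in these shares was not tested.

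The knockout m6A peaks lay toward the start of the genes and the wild-type peaks toward the 3′ end. Each span was divided into 3 equal parts, called 5′, middle and 3′. RefSeq strands were at hand for the 183 members in the promoter table, which held 31 pairs of a gene and a knockout peak, 241 with a wild-type peak and 198 with a RIP peak. In the 3′ part of the span lay 4 knockout pairs (12.9%, 3.63 to 29.8%) and 188 wild-type pairs (78%, 72.2 to 83.1%). In the 5′ part lay 18 knockout pairs (58.1%, 39.1 to 75.5%) and 14 wild-type pairs (5.81%, 3.21 to 9.55%). The median knockout midpoint stood 3.08 kb after the start and 15.7 kb before the end of the span. The median wild-type midpoint stood 13 kb after the start and 2.84 kb before the end.

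RIP peaks were spread along the genes. Of the 198 pairs, 74 lay in the 5′ part (37.4%), 48 in the middle part (24.2%) and 76 in the 3′ part (38.4%). The same division over all protein-coding genes was 39%, 26.5% and 34.5%. In the wild-type list the members' 78% in the 3′ part stood against 68.4% over all protein-coding genes (67.5 to 69.3%), and their 5.81% in the 5′ part against 16.8% (16 to 17.5%). In the knockout list their 58.1% in the 5′ part was close to the 58.7% over all protein-coding genes. In isolated Zfp genes the 3′ part held 72.4% (65.3 to 78.7%), with an interval overlapping that of the clustered genes. Leaving out Zfp993, which has a span over 100 kb, moved the members' share in the 3′ part to 79.1%. Zfp978, the other member with such a span, had no strand at hand and was not in these pairs.

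**Figure D2:**
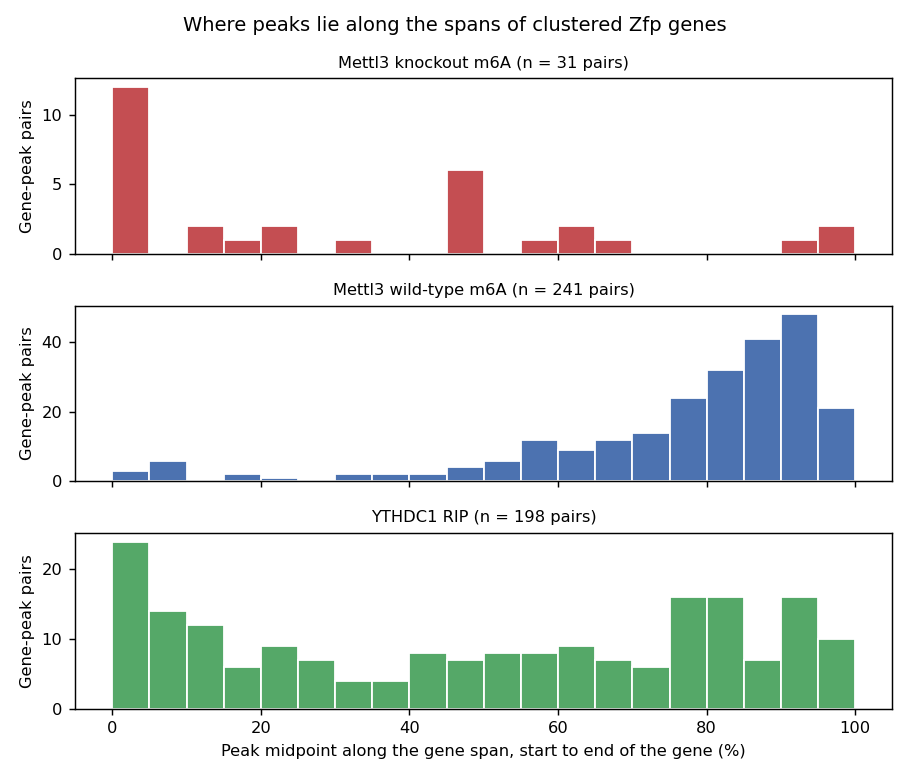
Position of peak midpoints along the span of their gene, from the start of the gene at 0% to its end at 100%, in 31 knockout m6A, 241 wild-type m6A and 198 YTHDC1 RIP pairs of gene and peak. Vertical axes count pairs. Knockout peaks gather in the 5′ part of the span (58.1%) and wild-type peaks in the 3′ part (78%). Over all protein-coding genes these shares were 58.7% and 68.4%.

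Many of the knockout peaks lay just downstream of annotated starts. Where a gene has several RefSeq starts, the distance was taken to the nearest. Of the 31 knockout pairs, 17 had their midpoint up to 200 bp downstream of a start (54.8%, 36 to 72.7%), in 17 different genes and between 58.5 and 164.5 bp after it. The 200 bp limit bounds this range. Their median distance was 99.5 bp, close to the 96.5 bp of such pairs over all protein-coding genes. Of the 241 wild-type pairs 3 lay there (1.24%, 0.257 to 3.59%), and of the 198 RIP pairs 12 (6.06%, 3.17 to 10.3%). Over all protein-coding genes the shares were 36.2% of knockout pairs, 4.15% of wild-type pairs and 6.72% of RIP pairs. The members' knockout share was the higher, and the lower end of its interval (36%) reached the background of 36.2%.

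The 17 knockout peaks began near the start, with upstream edges from 66 bp before to 50 bp after it and a median 11 bp before. For such pairs the median edge was 27 bp before the start over all protein-coding genes and 38 bp before in isolated Zfp genes. The 17 peaks were between 100 and 400 bp wide. Their midpoints were limited to 200 bp after a start, so an edge near it follows in part from the choice. In Zfp53 the peak covered chr17:21488951-21489300, and in Zfp110, the gene of a partner of the neurotrophin receptor p75, chr7:12834751-12835100, with midpoints 137.5 and 164.5 bp after the starts printed above. Zfp809, known for silencing murine leukaemia viruses in embryonic stem cells, held its start peak at chr9:22225701-22225900, and Zfp932, known for silencing endogenous retroviruses, at chr5:109996501-109996700. In 14 of the 17 genes no wild-type peak lay at a start. In Zfp212, Zfp428 and Zfp445 one did. Over all protein-coding genes 1952 held a knockout peak at a start and only 403 a wild-type one, so few wild-type start peaks is no trait of the members alone. Genes with both were not counted there. In Zfp445, which is known for keeping imprints together with ZFP57, both lists gave the identical interval, chr9:122865851-122866000. What the start peaks mark was not tested.

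**Figure D3:**
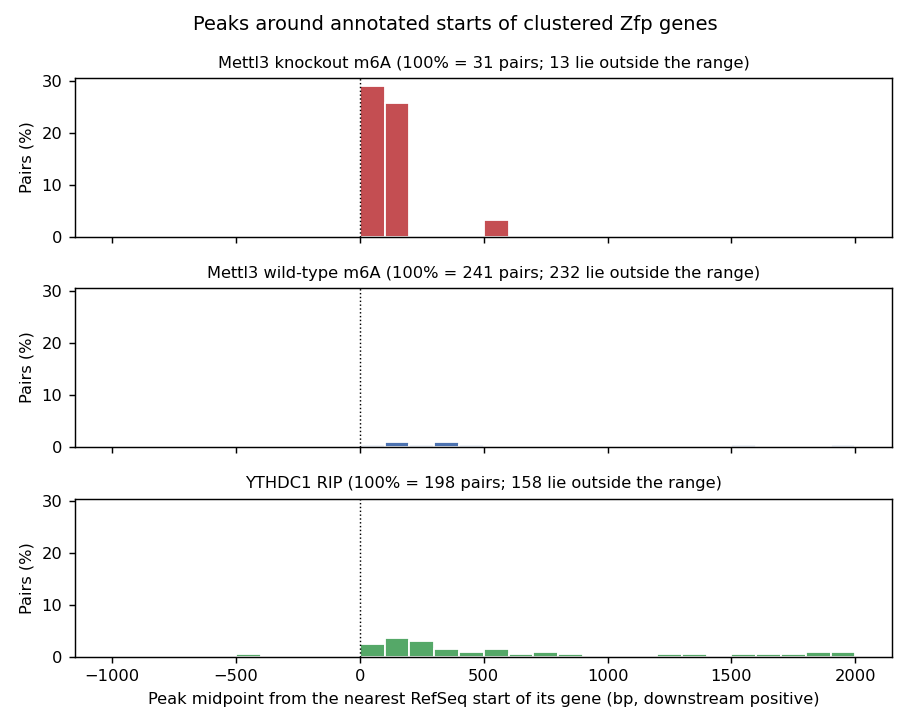
Distance of peak midpoints from the nearest RefSeq start of their gene (horizontal axis, bp, downstream positive, bins of 100 bp) as a percentage of all knockout m6A, wild-type m6A and YTHDC1 RIP pairs in clustered Zfp genes. The dotted line is the start. Within 200 bp downstream lay 54.8% of the knockout, 1.24% of the wild-type and 6.06% of the RIP pairs.

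At the 17 starts with a knockout peak the first base of the RNA was G in 8, C in 5, A in 3 and T in 1. Promoter windows of 300 bases (250 before the start and 50 after, the first listed for each gene) were searched on both strands for 5 motifs chosen after the windows had been seen, none of which contains another. The letters CCGGAAG, the core of ETS factor sites, stood in 21.3% of 183 member windows (15.6 to 28%), against 23.8% of 122 windows of isolated Zfp genes (16.5 to 32.3%) and 11.9% of 17492 windows of protein-coding genes. CCAAT stood in 53.6% (46 to 60.9%), against 45.9% of isolated Zfp windows (36.8 to 55.2%) and 39% of protein-coding ones. GGGCGG, the GC box, stood in 38.8% (31.7 to 46.3%), against 53.3% of isolated Zfp windows (44 to 62.4%) and 46.3% of protein-coding ones. The palindromic NRF1 site stood in 4.92% (2.27 to 9.13%), against 1.64% (0.199 to 5.8%) and 1.32%, and TATAAA in 4.92% (2.27 to 9.13%), against 7.38% (3.43 to 13.5%) and 13.3%. For each motif the intervals of clustered and isolated genes overlapped, which does not show that the shares are equal. Of the 17 windows of genes with a knockout start peak, 5 held CCGGAAG (29.4%, 10.3 to 56%), 12 CCAAT (70.6%, 44 to 89.7%) and 5 GGGCGG (29.4%, 10.3 to 56%). The NRF1 site and TATAAA stood in 1 each (5.88%, 0.149 to 28.7%). Each of these intervals included the share over the 183 member windows. The first listed window of a gene need not be that of the start with the peak.

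CG-rich promoters are typical of broadly active genes. The median was 12 CG steps per window in 116 members with a wild-type peak and 10 in 67 members without (quartiles 8 to 18 and 7 to 17). Over all protein-coding genes it was 22 with a wild-type peak and 7 without (quartiles 15 to 30 and 2 to 20). CCGGAAG was found in 16.4% of the members with a wild-type peak and 29.9% of those without, with overlapping intervals (10.2 to 24.4% and 19.3 to 42.3%), and over all protein-coding genes in 19.4% of those with and 8.52% of those without.

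The members with a wild-type peak held 2.15 pairs each on average. The mean was 1.81 over all protein-coding genes with such a peak and 2.46 over isolated Zfp genes with one. A single wild-type peak was found in 54 members, 2 in 40, 3 in 27, 4 in 10 and 5 or more in 7. The highest number was 7, in Zfp866 and Zfp993. The 34 knockout peaks in members were 100 to 400 bp wide with a median of 200 bp, against 250 bp in all protein-coding genes. The 292 different wild-type peaks were 100 to 2500 bp wide with a median of 300 bp, narrower than the 400 bp over all protein-coding genes. The share of wild-type peaks of 1 kb or more was close, 9.93% in members and 9.85% in all.

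**Figure D4:**
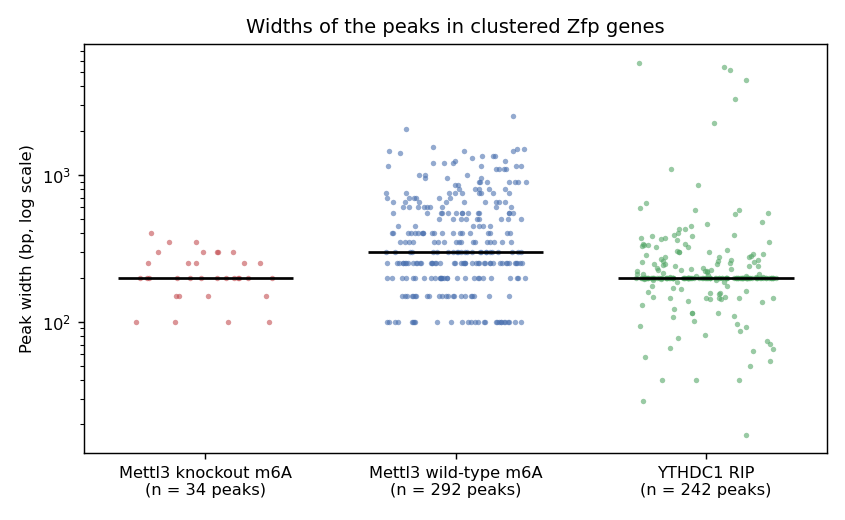
Width of each peak (log scale, bp) in the spans of clustered Zfp genes, with 1 point per peak and a bar at the median, for 34 knockout m6A, 292 wild-type m6A and 242 YTHDC1 RIP peaks. The medians are 200, 300 and 200 bp, and no knockout peak is wider than 400 bp.

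The widest wild-type peak of all stood in Zfp871 (2500 bp, chr17:32773451-32775950), which had no knockout peak. The next stood in Zfp553 (2050 bp, chr7:127235201-127237250) and Zfp846 (1550 bp, chr9:20593201-20594750), both without a knockout peak. Zfp568, which represses a placental transcript of Igf2, had no knockout peak and wild-type peaks of 1500, 500 and 250 bp, the widest at chr7:30022851-30024350. Zfp865 also had no knockout and a 1500 bp wild-type peak. The widest in Zfp87, Zfp383 and Zfp746 was 1450 bp, in each without a knockout peak. Zfp746 encodes PARIS, a substrate of the ubiquitin ligase parkin. The other 2 of the 10 genes with the widest peaks had a knockout peak of 300 bp each, set against wild-type peaks of 1400 bp in Zfp13 and 1350 bp in Zfp646. Zfp689 and Zfp956, named for the tie with Zfp646, also had a widest wild-type peak of 1350 bp, and neither had a knockout peak. A wild-type peak of at least 1 kb was found in 25 members, 18.1% of those with a wild-type peak, against 16.8% of all such protein-coding genes and 29% of such isolated Zfp genes.

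Knockout and wild-type peaks seldom met. Of the 34 knockout peaks 8 overlapped a wild-type peak by at least 1 bp (23.5%, 10.7 to 41.2%), and of the 292 wild-type peaks 8 overlapped a knockout peak (2.74%, 1.19 to 5.33%). Over all protein-coding genes these shares were 21.3% and 11.7% (11.1 to 12.3%). The members' wild-type peaks thus lay clear of the knockout list more often than the background, while their knockout peaks were close to it. In isolated Zfp genes 4.88% of wild-type peaks overlapped a knockout peak (2.55 to 8.37%), with an interval that overlapped that of the members.

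Within Zfp809 the lists mostly kept apart. Of its 3 knockout peaks 1 stood at the start, 1 at chr9:22234951-22235100 and 1 (chr9:22239701-22239950) inside a 550 bp wild-type peak (chr9:22239401-22239950). Its 6 wild-type peaks ran over chr9:22238551-22250150, with the widest, 750 bp, closest to the 3′ end. The span of Zfp599 overlaps that of Zfp809 and holds 2 of these peaks, the 750 bp one included, so their gene is uncertain. Zfp212 had 2 knockout peaks, both on wild-type peaks, while its 900 bp wild-type peak near the 3′ end (chr6:47930651-47931550) met no knockout peak. Zfp771 had 3 knockout and 3 wild-type peaks, the widest 300 and 400 bp. Zfp141 had 2 knockout and 3 wild-type peaks, and Zfp445 had 2 and 4. Zfp180 had 1 knockout peak at its start and 3 wild-type peaks, of which the widest (1300 bp, chr7:24105251-24106550) lay near its 3′ end.

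Zfp932 had 1 knockout and 1 wild-type peak, both of 200 bp. Zfp819 had 0 knockout and 2 wild-type peaks, the widest of 800 bp. Zfp708, which binds the retrotransposon family RMER19B, had 0 knockout peaks and 1 wild-type peak of 100 bp. Zfp120, Zfp459 and Zfp961 each had 0 knockout and 2 wild-type peaks, and Zfp101 and Zfp429 each 0 and 1. Zfp992 had 1 peak in each m6A list. The imprinting factor Zfp57 and the pluripotency marker Zfp42 did not meet the 100 kb rule.

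The 212 members formed 52 genomic clusters on 14 chromosomes. Chromosome 7 alone held 73 members (34.4%) in 14 clusters, chromosome 17 held 32 in 7 and chromosome 13 held 23 in 4. There were 23 clusters of 2 genes and 15 clusters of 5 or more, which held 120 members. At the limit of the rule, Zfp605 and Zfp932 lay 97762 bp apart and were in, and Zfp715 and Zfp936 lay 104413 bp apart and were out. Inside the limit, Zfp605 had 0 knockout and 1 wild-type peak and Zfp932 had 1 of each. Outside it, Zfp715 had 0 knockout and 1 wild-type peak and Zfp936 had none in either m6A list. By cluster size, a knockout m6A peak stood in 10.9% of members of clusters of 2, 15.2% in clusters of 3 or 4 and 11.7% in clusters of 5 or more. For the wild-type list the shares were 63%, 65.2% and 65.8%, with overlapping intervals.

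The clusters differed among themselves. The cluster with most members, on chromosome 7 from Zfp84 to Zfp146, held 15, of which 2 had a knockout peak and 13 a wild-type peak. Zfp568, with its widest wild-type peak, and Zfp383 lie in it. In the cluster of chromosome 17 from Zfp871 to Zfp563, 0 of 8 members had a knockout peak and all 8 a wild-type peak. In that of chromosome 6 from Zfp786 to Zfp746, 2 of 7 had a knockout peak and all 7 a wild-type peak. The second by number of members, on chromosome 13 from Zfp712 to Zfp748, had 0 of 14 in the knockout and 7 of 14 in the wild-type list. The third, on chromosome 17 from Zfp677 to Zfp943, had 1 of 13 and 6 of 13, and its widest wild-type peaks, of 400 bp, stood in Zfp51 and in Zfp760, which is named for the tie. On the same chromosome, then, 1 cluster had a wild-type peak in all of its members and another in a minority.

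Among the clusters of 5 or more, the widest wild-type peak stood in Zfp180 (1300 bp) in the 10 genes from Zfp180 to Zfp94 on chromosome 7, and in Zfp329 (1150 bp) among the 5 from Zfp329 to Zfp446. It stood in Zfp868 (1100 bp) on chromosome 8, in Zfp787 (1000 bp) and Zfp59 (900 bp) on chromosome 7, in Zfp978 (700 bp) on chromosome 4 and in Zfp738 (250 bp) on chromosome 13. In all, 17 clusters had a wild-type peak in every member, 29 in some and 6 in none, and 11 of the 17 and 5 of the 6 were clusters of 2. Of 160 pairs of neighbouring members, 71 had a wild-type peak in both, 63 in 1 and 26 in neither. Mixed pairs are bound to occur where 65.1% of members have a wild-type peak. Whether they were more or fewer than that share alone would give was not tested.

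**Figure D5:**
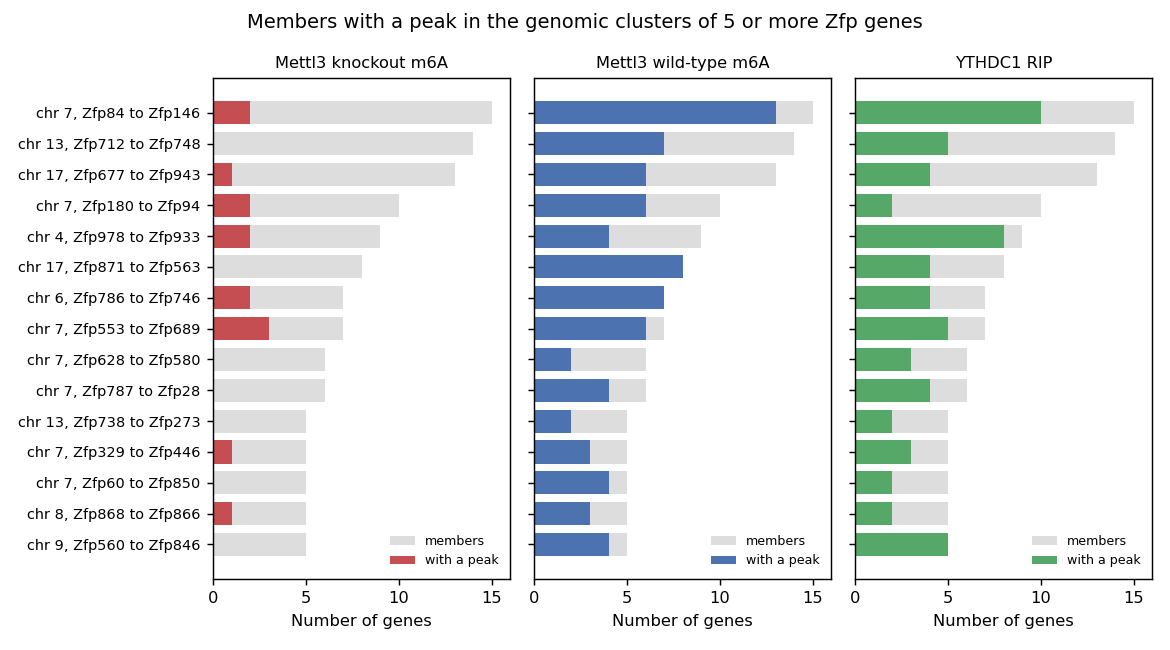
Number of members (grey) and of members with a peak (colour) in the 15 genomic clusters of 5 or more Zfp genes, 1 panel each for the knockout m6A, wild-type m6A and YTHDC1 RIP lists. Clusters run from 15 members at the top to 5 at the bottom and are named by chromosome and by their first and last gene. The share in the wild-type list runs from 2 of 6 to all 8 of 8, and the cluster on chromosome 4 has 8 of 9 members in the RIP list.

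By chromosome, the members' wild-type share lay between 25% (1 of 4, X chromosome) and 100% (chromosomes 15, 16 and 18 with 5, 3 and 3 members). On chromosome 7 a knockout peak was found in 12 of 73 members (16.4%, 8.79 to 27%) and in 16.6% of all protein-coding genes of that chromosome. A wild-type peak was found in 51 (69.9%, 58 to 80.1%) and in 25.5% of that chromosome's genes. On chromosome 13 it was 0 of 23 (0%, up to 14.8%) in the knockout list and 12 of 23 (52.2%, 30.6 to 73.2%) in the wild-type list, against 15.6% and 27.5% of that chromosome's genes. On chromosome 17 it was 2 of 32 (6.25%, 0.766 to 20.8%) and 21 of 32 (65.6%, 46.8 to 81.4%), against 20.3% and 33.2%. On chromosome 2, 0 of 11 members had a knockout peak and 4 of 11 a wild-type peak (36.4%, 10.9 to 69.2%, all genes of that chromosome 30.4%), the lowest wild-type share among chromosomes with at least 10 members. Members of 1 cluster can be near-identical copies, and how reads shared between copies were placed was not stated in any source used here. Its part in the clusters with few peaks was not tested.

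The bounds of the clusters also took in, wholly or in part, 49 protein-coding genes that are not members. Of these, 10.2% had a knockout m6A peak (3.4 to 22.2%), 38.8% a wild-type one (25.2 to 53.8%) and 44.9% a RIP peak (30.7 to 59.8%). In the wild-type list they lay below the members, whose interval began at 58.3%, and their own interval included the 30.3% of all protein-coding genes. They were also shorter, with a median span of 11802 bp against 15819 bp in members, and the part of length was not tested.

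Both a wild-type m6A and a RIP peak were found in 94 members (44.3%, 37.5 to 51.3%, background 22.6%). The share was 47.7% in isolated Zfp genes (39.7 to 55.9%) and 50.7% in BTB and SCAN genes (38.2 to 63.2%), so it is no trait of clustered genes alone. Of the 118 members with a RIP peak 79.7% also had a wild-type m6A peak (71.3 to 86.5%), and of the 94 without a RIP peak 46.8% had one (36.4 to 57.4%). Over all protein-coding genes the shares were 53.5% and 13.4%. A knockout m6A peak was found in 16.9% of the members with a RIP peak (10.7 to 25%) and in 6.38% of those without (2.38 to 13.4%). For all protein-coding genes these knockout shares were 33.5% with a RIP peak and 6.98% without. The members lay below the background where they had a RIP peak and close to it where they had none. The median span was 19119 bp with a RIP peak and 14965 bp without, and the part of length was not tested.

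At the level of single peaks the lists met less often. Of the 292 wild-type m6A peaks in members, 43 overlapped a RIP peak (14.7%, 10.9 to 19.3%), and over all protein-coding genes 13.1% did. Of the 34 knockout peaks 1 did (2.94%, 0.0744 to 15.3%), against 21.6% over all protein-coding genes. That one lay in Zfp445 at chr9:122862201-122862400, which overlapped a 265 bp RIP peak and lay inside a 600 bp wild-type peak. The wild-type peaks on a RIP peak had a median width of 550 bp and the others 300 bp. The part of width in these shares was not tested. In Zfp871 the 2500 bp wild-type peak overlapped a 200 bp RIP peak. In Zfp553 the 250 bp wild-type peak overlapped a RIP peak and the 2050 bp one did not, and the 1 RIP peak of Zfp568 lay away from its wild-type peaks.

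Most RIP peaks per member stood on chromosome 4. All but 1 of its 14 members had a RIP peak (92.9%, 66.1 to 99.8%), against 46.2% of all protein-coding genes of that chromosome. They held 63 of the 242 RIP peaks found in members. Zfp978 and Zfp993 had 19 RIP peaks each, Zfp991 8, Zfp992 7, and Zfp979 and Zfp982 5 each. The span of Zfp991 lies wholly inside that of Zfp978, so its 8 peaks are also counted among the 19 of Zfp978. The spans of Zfp978 and Zfp993, 267146 and 478623 bp, are the longest of all, and without these 2 genes the count over all members was 216. Among the named members elsewhere, Zfp229 had 6, Zfp566 had 5, and Zfp444 and Zfp934 had 4 each. On chromosome 16, 0 of 3 members had a RIP peak.

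The RIP peaks of members were narrow. Their median width was 200 bp, as over all protein-coding genes, and 7 of 242 reached 1 kb (2.89%, all protein-coding genes 5.29%). Widths of 4 kb or more were found in 4 peaks (1.65%, all protein-coding genes 4.03%). They lay in 3 members (1.42%, 0.293 to 4.08%, background 3.05%). Zfp442 held one of 5817 bp, Zfp560 one of 5466 bp and Zfp458 a pair of 5205 and 4412 bp, all named because the count is small. None of the 4 lay on chromosome 4, where the number of RIP peaks was highest. RIP peaks without strand cannot be assigned to the gene rather than to RNA from the opposite strand or from a repeat within the span.

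Genes that act with KRAB zinc finger proteins were followed in a list of 25 genes of corepressors and heterochromatin, chosen by hand. Of these, 16 had a knockout m6A peak (64%, background 18.2%), 16 a wild-type one (64%, background 30.3%) and 23 a RIP peak (92%, background 42.2%). A wild-type and no knockout peak was found in 5 (20%, background 18.8%), and the reverse in 5 (20%, background 6.66%). Trim28, the corepressor that KRAB domains bind, had 0 knockout, 0 wild-type and 2 RIP peaks. Setdb1 had 0 knockout, 3 wild-type and 3 RIP peaks. Atf7ip, its stabilising partner, had 10 knockout and 6 wild-type peaks. Dnmt1, the maintenance DNA methyltransferase, had 9 knockout peaks and no wild-type one, and the heterochromatin protein genes Cbx1 and Cbx5 had 2 and 0 each.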

How the data were processed

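Peaks came from 3 deposited lists, in which the authors give chromosome, start and end of each peak in bp and no score, count or other unit. The submitters' processing notes name mm10, bcl2fastq, STAR 2.7, HISAT2 2.2.0, Trim Galore 0.6.4, SAMtools 1.9 and MACS2 2.1.2. No source used here gives their roles, the peak thresholds, any pooling or the m6A antibody. Of the m6A peaks 100% lay on a 50 bp grid and of the RIP peaks 0.513%. List length is no measure of m6A or binding, and the depth behind the peaks is unknown. Per the labels, the m6A samples are polyA RNA and the RIP samples total RNA.

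Gene spans, symbols and biotypes came from the RefSeq table of GRCm38.p6, without mitochondrial genes, and strands and starts from its promoter table. Coordinates are counted from 1. A midpoint in several spans counted for each. Midpoints in the spans of 2 or more members were those of 0 knockout, 5 wild-type and 13 RIP peaks. Of the peaks in members, 0 knockout, 18 wild-type and 8 RIP peaks also lay in another protein-coding or long non-coding RNA gene, so the gene they belong to is uncertain. Counting was checked on simulated spans and peaks. Python 3.11.15, pandas 2.3.3 and scipy 1.17.1 were used.

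The members and gene lists were chosen with earlier results of these data known. Named genes were the 10 members with the widest wild-type peak, up to 10 with the widest knockout peak, the 10 with most RIP peaks, the member with the widest wild-type peak in each cluster of 5 or more, and members of known function. Samples were grouped by title and source name, although Mettl3-KO samples carry WT in their cell type. Protein sequences and finger counts were not analysed here. No test was run, since the lists hold no replicates.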

Additional observations from a re-analysis of the deposited data

How the results depend on the processing

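Of 43 recomputed values 36 stayed within 1.5 times the count, or within the interval of the share, and 7 did not. With peaks wider than their list's median only, a knockout m6A peak was found in 8 members, a wild-type one in 77, a RIP peak in 55, and a wild-type without a knockout peak in 73. The share of wild-type peaks overlapping a knockout peak was then 0.926% and a RIP peak 9.26%. The members' shares were 3.77% against 7.87% of all protein-coding genes in the knockout list, 36.3% against 19.8% in the wild-type list, and 25.9% against 27.4% in the RIP list, where the direction from the background turned. Fewer peaks enter by construction. With an overlap of at least 0.5 of the narrower peak, 10.6% of wild-type peaks met a RIP peak. Assignment by any overlap, by the shortest span or to no other gene (chosen after seeing the data) kept the 212 members. Of these, 26 to 27 had a knockout peak and 132 to 138 a wild-type peak. Limits of 50 and 200 kb changed the number of members to 190 and 230. A knockout peak then stood in 23 and 27 of them (12.1% and 11.7%, background 18.2%). A wild-type peak stood in 122 and 148 (64.2% and 64.3%, background 30.3%). No paired analysis was possible because the lists carry no value per replicate, and for the same reason no replicate could be left out.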
